A study of Homo sapiens with 6 samples.

Results

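The genes described here are 41 transcripts of autophagy and the lysosome, taken by symbol from a list of genes of these functions, out of 23368 gene symbols in the count table. They were treated as separate classes of 22 autophagy genes and 19 lysosome genes, the latter with the transcription factors TFEB and TFE3. All 41 were in the table, CTSL1 under its older symbol, and 41 of 41 passed the filter on low counts that left 13322 genes for testing. RNA was sequenced from the established human breast cancer line MDA-MB231, which lacks hormone receptors, after transfection of siRNA with the reagent interferin. The groups were a control siRNA (siControl) and siL1 or siL2, each a different siRNA against LSD1, with 2 libraries a group. LSD1 is the histone lysine demethylase encoded by KDM1A. Whether the libraries of a group were separate cultures is not stated in the labels, and p-values therefore cover no more than the variation among these libraries, which may be technical. In bulk RNA, fewer cells of a kind and less RNA per cell cannot be told apart.

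Autophagy encloses cytoplasm in a double membrane, the autophagosome, and delivers it to the lysosome for digestion. The ULK kinases and a class III PI3-kinase complex start the membrane, a ubiquitin-like conjugation system attaches ATG8 family proteins to it, and cargo receptors bind both ATG8 proteins and cargo. Lysosomes hold acid hydrolases behind a glycoprotein-coated membrane acidified by the V-ATPase, and TFEB and TFE3 can activate many lysosomal genes through E-box sequences named CLEAR elements.

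The libraries held 22047738 to 26765079 counts, and a gene without a count may still reach 3 counts, or 0.112 to 0.136 CPM (counts scaled to a common library total). KDM1A stood at 158 and 165 CPM in siControl, 27.7 and 28.1 CPM in siL1, and 17.4 and 18.1 CPM in siL2. VIM, AXL, MSN, CAV1 and CD44, which MDA-MB231 cells express, lay between 541 and 3707 CPM, and SPARC between 5.44 and 15.9 CPM. ESR1, PGR and CDH1 had 0 to 3 counts in any library, whereas GATA3 (2.54 to 5.40 CPM) and EPCAM (9.34 to 12.6 CPM) were present at low levels. Of 12 blood cell markers, CD68, a lysosomal glycoprotein, reached 206 to 272 CPM. The other 11 summed to 0.635 and 0.680 CPM in siControl, 1.18 and 1.23 CPM in siL1, and 0.859 and 1.26 CPM in siL2, with MS4A1, HBB and HBA1 at 0 and 7 of the 11 at 3 counts or fewer in every library. Their part in the results was not tested.

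With siL1, 10 of the 22 autophagy genes rose and 3 fell, and 10 of the 19 lysosome genes rose and 1 fell. Changes are log2 fold changes from edgeR's quasi-likelihood test, called where the Benjamini-Hochberg adjusted p over all tested genes was under 0.05. Over all 13322 genes, 24.7% were called higher and 25.7% lower with siL1. The median log2 fold change was 0.09 over the autophagy genes and 0.23 over the lysosome genes, beside -0.01 over all tested genes. With siL2, 12 autophagy genes rose and 2 fell, and 7 lysosome genes rose and 2 fell, where 22.6% of all genes were called higher and 23.3% lower. The medians were 0.19 for autophagy and 0.15 for lysosome genes, beside -0.00 for all genes. With the replicate number as a block, 4 autophagy genes in place of 2 fell with siL2 (edgeR). The comparisons share the control libraries, so their counts are not independent of each other. The authors' deposited table held adjusted p under 0.05 for 29% of 17202 genes with siL1 and 26.2% of 17161 with siL2. These shares pool both directions. Among the members that table had 7 autophagy genes higher and 3 lower with siL1, and 8 lysosome genes higher and 1 lower. With siL2 the authors' deposited table had 11 autophagy genes higher and 1 lower, and 7 lysosome genes higher and 2 lower.

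**Figure D1:**
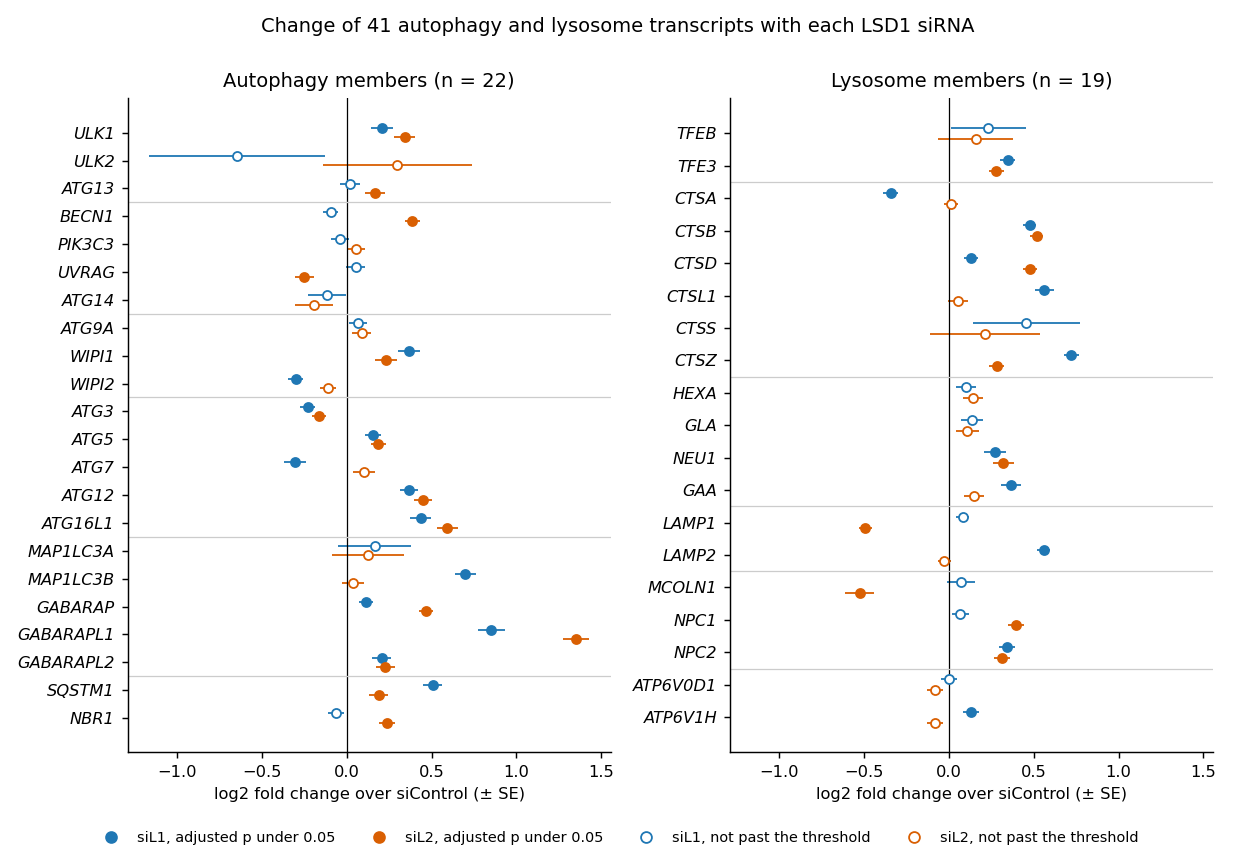
Log2 fold change over siControl (x axis, ± SE from the edgeR fit) of the 22 autophagy and 19 lysosome genes, ordered by role, with siL1 in blue and siL2 in orange, filled where the adjusted p was under 0.05. Most filled points lie to the right of 0; GABARAPL1 is farthest right with both siRNAs, and LAMP1 and MCOLN1 are to the left with siL2 and near 0 with siL1.

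GABARAPL1 with siL2 was the single member of 41 called with a change of at least 2-fold (log2 fold change 1.35). Over all 13322 tested genes, 500 were called at least 2-fold higher and 105 lower with siL1, and 287 and 172 with siL2. Among called members the largest fall against the control was that of MCOLN1 with siL2 (-0.52). The summed level of the 22 autophagy genes was 1920.2 and 1924.7 CPM in siControl, 2103 and 2156 CPM in siL1, and 2204 and 2209.9 CPM in siL2. The 19 lysosome genes summed to 2044 and 2029.8 CPM in siControl, 2397 and 2424 CPM in siL1, and 2259 and 2243 CPM in siL2. In both classes the 4 libraries of the LSD1 siRNAs lay above the 2 control libraries. Such sums lean on the most abundant genes and do not show a rise across a class. SQSTM1 was the largest autophagy gene in every library, at 337 and 367 CPM in siControl. It stood at 471 and 526 CPM in siL1, and 391.8 and 413.3 CPM in siL2.

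E-boxes were found in a larger share of the lysosome promoters than of the autophagy promoters. RefSeq (GRCh38.p14) gave a window from 250 bases before to 50 bases after the transcription start for 34 members, 20 autophagy and 14 lysosome genes. The E-box CACGTG, which is its own reverse complement, was present in 7 of the 14 lysosome genes and 2 of the 20 autophagy genes, and in 7.26% of all 35116 windows. The longer TCACGTG, searched on both strands and containing that E-box, was present in the same 7 and 2 genes and in 3.71% of windows, and TCACGTGA in 5 and 1 genes and 0.98% of windows. The lysosome genes were LAMP1, MCOLN1, CTSA, CTSD, GAA, NEU1 and ATP6V0D1, and the autophagy genes ATG3 and ATG14. The windows printed are those of CTSD, which rose with both siRNAs, of LAMP1 and MCOLN1, which fell with siL2, and of GABARAPL1, the most raised member; capitals mark CACGTG.
CTSD, chr11:1763878-1764177, minus strand: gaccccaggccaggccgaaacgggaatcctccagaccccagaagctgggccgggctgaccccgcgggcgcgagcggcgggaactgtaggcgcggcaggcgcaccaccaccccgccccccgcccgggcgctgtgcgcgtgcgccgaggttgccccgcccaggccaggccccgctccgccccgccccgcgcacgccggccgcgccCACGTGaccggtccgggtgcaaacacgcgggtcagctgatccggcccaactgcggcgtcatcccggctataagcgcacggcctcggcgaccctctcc
LAMP1, chr13:113296989-113297288, plus strand: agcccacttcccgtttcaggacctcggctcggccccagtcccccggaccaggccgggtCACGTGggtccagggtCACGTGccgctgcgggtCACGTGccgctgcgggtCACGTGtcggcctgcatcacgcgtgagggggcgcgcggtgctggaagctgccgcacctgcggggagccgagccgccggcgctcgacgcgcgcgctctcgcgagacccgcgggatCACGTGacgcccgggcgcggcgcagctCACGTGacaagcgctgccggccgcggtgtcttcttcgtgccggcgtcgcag
MCOLN1, chr19:7522374-7522673, plus strand: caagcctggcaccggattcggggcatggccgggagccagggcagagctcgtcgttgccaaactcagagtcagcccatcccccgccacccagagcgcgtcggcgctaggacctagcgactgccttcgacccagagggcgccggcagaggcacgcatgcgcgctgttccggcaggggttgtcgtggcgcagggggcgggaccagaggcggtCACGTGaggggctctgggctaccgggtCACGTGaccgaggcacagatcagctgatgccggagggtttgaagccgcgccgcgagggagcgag
GABARAPL1, chr12:10212627-10212926, plus strand: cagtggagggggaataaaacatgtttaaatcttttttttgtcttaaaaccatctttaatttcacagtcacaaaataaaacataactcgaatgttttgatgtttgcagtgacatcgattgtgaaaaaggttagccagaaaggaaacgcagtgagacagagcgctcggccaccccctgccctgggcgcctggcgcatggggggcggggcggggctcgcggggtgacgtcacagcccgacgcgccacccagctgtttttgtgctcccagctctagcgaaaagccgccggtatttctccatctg
The LAMP1 window holds 6 copies, MCOLN1 2, CTSD 1 and GABARAPL1 0. The 7 E-box lysosome genes did not move in 1 direction: with siL1, CTSD, GAA and NEU1 rose and CTSA fell, and with siL2, CTSD and NEU1 rose and LAMP1 and MCOLN1 fell. A match is a description of these letters, and binding was not measured.

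**Figure D2:**
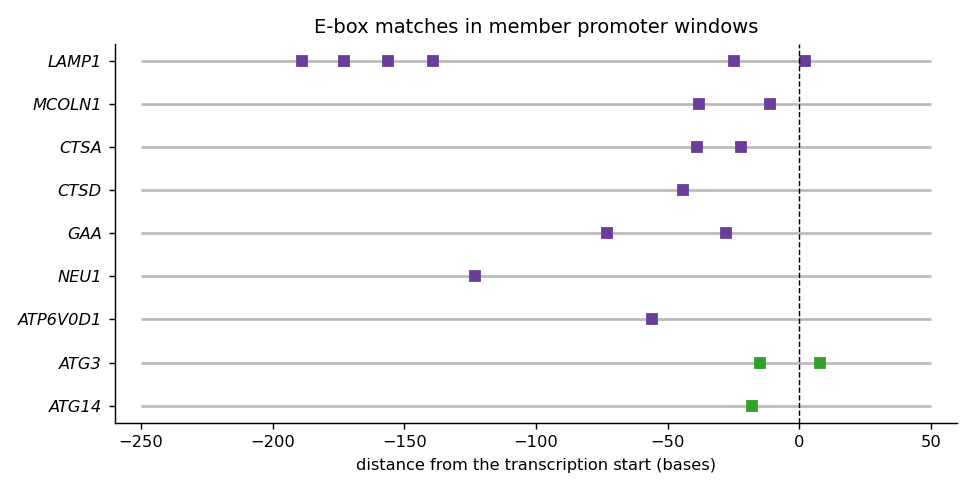
Position of each CACGTG match (squares, at the middle of the match) in the 300-base promoter windows of the 9 members that hold one, as distance in bases from the annotated transcription start (dashed line), lysosome genes in purple and autophagy genes in green. LAMP1 has 6 matches, 4 of them clustered upstream, and the other genes have 1 or 2.

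The ATG8 family, the ubiquitin-like proteins that coat the autophagosome, held the member with the largest rise over the control with each siRNA, GABARAPL1. Of its 5 genes, 4 rose with siL1 and 3 with siL2, where 24.7% and 22.6% of all tested genes were called higher. Calls of GABARAP and GABARAPL2 were lost in some alternatives, as given below. GABARAPL1 stood at 13.6 and 14.2 CPM in siControl, 24.1 and 25.8 CPM in siL1, and 35.7 and 35.4 CPM in siL2. The 3 groups did not overlap, and siL2 was the highest. It rose by 0.85 with siL1 (SE 0.0797, adjusted p = 2.33e-06 by edgeR) and by 1.35 with siL2, or 2.55-fold (SE 0.0765, adjusted p = 3.00e-08), and was higher with siL2 than with siL1 (0.50, adjusted p = 8.54e-05). GABARAPL3, a near-identical copy whose reads may be shared, had 0.593 to 1.23 CPM. MAP1LC3B, the LC3 form commonly used to follow autophagosomes, showed the reverse order of siRNAs. Its values were 79.7 and 77.3 CPM in siControl, 119 and 135 CPM in siL1, and 83.8 and 77.6 CPM in siL2. The siL1 libraries were above all others, and the siL2 libraries overlapped the control. MAP1LC3B rose by 0.70 with siL1 (SE 0.0630, adjusted p = 1.68e-06), had a log2 fold change of 0.04 with siL2 (adjusted p = 0.678), and was lower with siL2 than with siL1 (-0.66, adjusted p = 3.04e-06). MAP1LC3B2, a near-identical paralog, ran alongside at 16.0 and 17.1, 22.8 and 25.9, and 17.4 and 16.0 CPM in the same order of groups, so reads of the pair cannot be assigned with certainty.

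GABARAP stood at 159 CPM in both control libraries, 168 and 175 CPM in siL1, and 218 and 223 CPM in siL2. The groups did not overlap, with a log2 fold change of 0.11 with siL1 (edgeR adjusted p = 0.0360) and 0.47 with siL2 (adjusted p = 1.36e-06). Its siL1 call was not kept without siControl replicate 1 (adjusted p = 0.117), siControl replicate 2 (0.108), siL1 replicate 2 (0.238) or either siL2 replicate (0.0523 and 0.0514), nor without a filter (0.0596) or with DESeq2 (0.0721). GABARAPL2 rose by 0.21 with siL1 and 0.23 with siL2; the calls ended without siL1 replicate 1 (adjusted p = 0.0580) and without siL2 replicate 1 (0.0548). MAP1LC3A, a further LC3 form, was the lowest of the family at 1.65 to 1.98 CPM in all libraries and did not pass the test (log2 fold changes 0.17 and 0.12).

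Levels of the family were compared per kilobase of the longest protein-coding transcript in GENCODE 29. In the control, GABARAP was at 97.3 ± 0.309 CPM per kb (SD, n = 2), GABARAPL2 at 47.2 ± 0.0427, MAP1LC3B at 29.2 ± 0.654, GABARAPL1 at 6.06 ± 0.177 and MAP1LC3A at 1.09 ± 0.0530. This order, with no overlap between neighbours, was also seen with siL1 and siL2. MAP1LC3B made up 16.4% and 15.9% of the family's summed level in the control, 20.7% and 22.5% with siL1, and 13.1% and 12.2% with siL2. GABARAPL1 made up 3.28% and 3.42% in the control, 4.91% and 5.06% with siL1, and 6.53% and 6.55% with siL2. The summed level was 181 CPM per kb in both control libraries, 214 and 223 with siL1, and 238 and 236 with siL2.

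**Figure D3:**
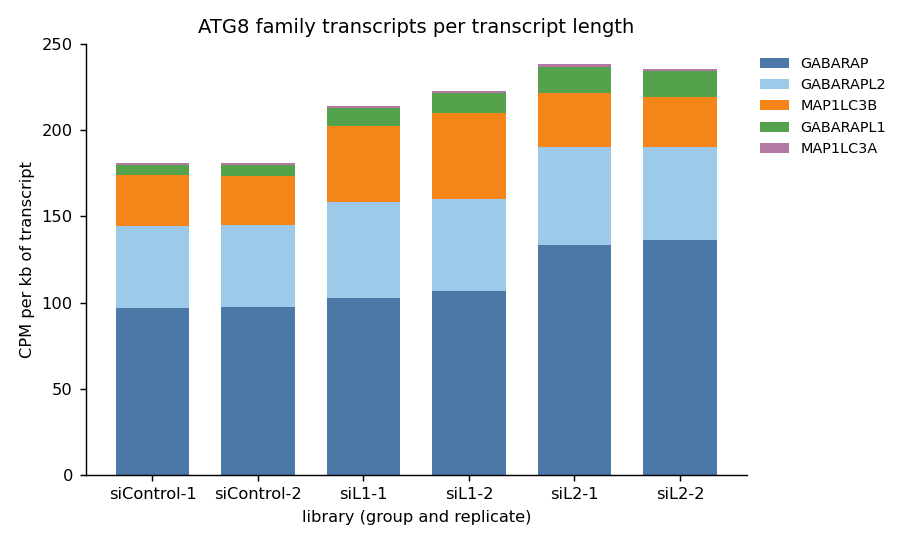
CPM per kb of transcript (y axis) of the 5 ATG8 family genes, stacked, in each of the 6 libraries. The stack is 181 high in the control libraries and 214 to 238 in the others; the MAP1LC3B segment is widest with siL1, and the GABARAPL1 segment widest with siL2.

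Cargo receptors differed between the siRNAs. SQSTM1, which encodes p62 and links ubiquitin to ATG8 proteins, stood at 337 and 367 CPM in siControl, 471 and 526 CPM in siL1, and 391.8 and 413.3 CPM in siL2. The siL1 libraries were the highest and the siL2 libraries lay between them and the control. SQSTM1 rose by 0.51 with siL1 (SE 0.0563, edgeR adjusted p = 1.02e-05) and by 0.19 with siL2 (adjusted p = 0.0149), and the siL2 call ended without siControl replicate 1 (adjusted p = 0.126) and without siL2 replicate 2 (0.0817). Its annotated exons overlap those of MGAT4B and MRNIP on the other strand, and the strand setting of the counting is not given in the sources used here. NBR1, a related receptor, stood at 262 and 242 CPM in siControl, 251 and 229 CPM in siL1, and 302 and 292 CPM in siL2. It rose by 0.24 with siL2 (adjusted p = 0.00150) and had -0.06 with siL1 (adjusted p = 0.309). The difference between the siRNAs was -0.32 for SQSTM1 and 0.30 for NBR1 (siL2 minus siL1, adjusted p = 0.000489 and 0.000270).

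Among the initiation kinases, ULK1, the kinase that starts autophagosome formation, stood at 31.8 and 30.4 CPM in siControl, 35.2 and 36.3 CPM in siL1, and 39.9 and 39.0 CPM in siL2. It rose by 0.21 (edgeR adjusted p = 0.0160) and 0.34 (adjusted p = 0.000678), and the siL1 call ended without siControl replicate 2 (0.119), without siL1 replicate 2 (0.101) and with DESeq2 (0.0595). ATG13, its partner, rose by 0.17 with siL2 (adjusted p = 0.0336), a call that ended without siControl replicate 1 (0.176) or siL2 replicate 2 (0.230), and had 0.02 with siL1. ULK2 had 0.243 to 0.568 CPM in all libraries, and its log2 fold changes of -0.65 and 0.30 had SEs of 0.517 and 0.438.

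Of the 4 genes of the class III PI3-kinase complex, 0 passed with siL1, and 1 rose and 1 fell with siL2. Over all tested genes, 24.7% were called higher and 25.7% lower with siL1, and 22.6% and 23.3% with siL2. BECN1, its Beclin 1 subunit, stood at 124 and 122 CPM in siControl, 118 and 111 CPM in siL1, and 162 and 159 CPM in siL2. The siL2 libraries were the highest and the siL1 libraries the lowest. BECN1 rose by 0.39 with siL2 (SE 0.0431, edgeR adjusted p = 1.20e-05), had -0.09 with siL1 (adjusted p = 0.0972), and differed between the siRNAs by 0.48 (adjusted p = 2.08e-06). With the replicate block its siL1 value passed as a fall (-0.09, adjusted p = 0.0237). UVRAG, which joins the complex in endosome and autophagosome maturation, fell by 0.25 with siL2 (54.8 and 52.3 CPM in siControl, 46.25 and 44.04 CPM in siL2, adjusted p = 0.00288) and had 0.05 with siL1. PIK3C3, the catalytic subunit, lay between 55.0 and 59.2 CPM in all 6 libraries and did not pass. ATG14, which directs the complex to autophagosomes, did not pass either (log2 fold changes -0.12 and -0.19); with siL2 it passed with the replicate block (-0.19, adjusted p = 0.00297) and without siControl replicate 1 (-0.34, adjusted p = 0.0317).

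The conjugation machinery, which attaches ATG8 proteins to lipid, had members on both sides. ATG16L1, which places the machinery on the membrane, stood at 36.9 and 35.6 CPM in siControl, 51.0 and 46.7 CPM in siL1, and 56.2 and 53.4 CPM in siL2. The groups did not overlap, with log2 fold changes of 0.44 (SE 0.0635, edgeR adjusted p = 9.60e-05) and 0.59 (SE 0.0626, adjusted p = 7.46e-06). ATG12, the ubiquitin-like partner of ATG5, stood at 46.5 and 48.6 CPM in siControl, 62.23 and 60.04 CPM in siL1, and 64.9 and 65.3 CPM in siL2, a rise of 0.37 and 0.45 (adjusted p = 0.000101 and 1.98e-05). ATG5 rose by 0.16 and 0.19; its siL1 call ended without siControl replicate 2 (adjusted p = 0.0876) and without siL1 replicate 2 (0.108). In contrast the E2-like enzyme ATG3 fell by 0.23 with siL1 (adjusted p = 0.000760) and by 0.16 with siL2 (adjusted p = 0.00818, and 0.0794 without siControl replicate 2). The E1-like enzyme ATG7 fell by 0.31 with siL1 (59.3 and 61.8 CPM in siControl, 52.3 and 45.4 CPM in siL1, adjusted p = 0.00160) and had 0.10 with siL2 (adjusted p = 0.207). ATG7 was higher with siL2 than with siL1 (0.41, adjusted p = 0.000197). The siL2 minus siL1 difference of ATG16L1 was 0.16 (adjusted p = 0.0485), a call that ended in each fit without 1 library except the one without siL1 replicate 1, at adjusted p from 0.0529 to 0.302, and also with RLE scaling (0.0501), upper quartile scaling (0.0555), DESeq2 (0.152) and only the 2 groups compared (0.0511).

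Of the membrane-supply genes, the phosphoinositide-binding WIPI1 rose by 0.37 with siL1 (edgeR adjusted p = 0.000396) and 0.23 with siL2 (adjusted p = 0.00967). The siL2 call ended without siControl replicate 2 (0.0671) or siL2 replicate 1 (0.0888). Its relative WIPI2 fell by 0.30 with siL1, from 124 and 117 CPM to 98.1 and 96.8 CPM (adjusted p = 0.000133). With siL2 WIPI2 stood at 110.5 and 113 CPM (-0.11, adjusted p = 0.0619), which passed with the replicate block (-0.11, adjusted p = 0.00903) and without siControl replicate 2 (-0.15, adjusted p = 0.0453). ATG9A, the lipid scramblase of the forming membrane, had 0.07 and 0.09 and did not pass. In GENCODE 29, exons of BECN1 (36.9% of bases), WIPI1 (26.5%) and ATG7 (24%) overlap genes on the other strand. Exons of GABARAP (55.7%), ATG9A (41.2%) and CTSD (62.5%) overlap another gene model on the same strand. Those of GABARAP and CTSD also overlap a model on the other strand, and these shares were not split by strand.

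Of the transcription factors, TFE3 stood at 84.8 and 81.7 CPM in siControl, 106 and 105 CPM in siL1, and 101 and 102 CPM in siL2. It rose by 0.35 and 0.28 (edgeR adjusted p = 3.66e-05 and 0.000237), with all 4 LSD1 siRNA libraries above the control. TFEB was low, at 3.05 to 5.12 CPM, with groups that overlapped (log2 fold changes 0.23 and 0.16, adjusted p = 0.404 and 0.591).

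The lysosome genes with the largest rise were cathepsins, the lysosomal proteases: CTSZ with siL1 and CTSB with siL2. CTSZ stood at 123 and 122 CPM in siControl, 207 and 196 CPM in siL1, and 153 and 146 CPM in siL2. The groups did not overlap, and siL1 was the highest. CTSZ rose by 0.72 with siL1 (SE 0.0425, edgeR adjusted p = 4.05e-08) and by 0.28 with siL2 (SE 0.0428, adjusted p = 0.000155). CTSB, the abundant cysteine protease cathepsin B, stood at 162 and 159 CPM in siControl, 227 and 218 CPM in siL1, and 233 and 226 CPM in siL2. It rose by 0.48 and 0.52 (adjusted p = 7.56e-07 and 4.10e-07), and its siRNA groups overlapped (difference 0.04, adjusted p = 0.421). CTSD, the aspartic protease cathepsin D with the E-box window printed above, stood at 312 and 315 CPM in siControl, 332 and 351 CPM in siL1, and 431 and 445 CPM in siL2. It rose by 0.48 with siL2 (adjusted p = 8.82e-07) and by 0.13 with siL1 (adjusted p = 0.0158), the latter call ending without siControl replicate 1 (0.0697) or siL1 replicate 2 (0.169).

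CTSL1, or cathepsin L, changed with siL1: its values were 52.5 and 51.8 CPM in siControl, 80.3 and 73.3 CPM in siL1, and 54.9 and 53.7 CPM in siL2. It rose by 0.56 with siL1 (edgeR adjusted p = 4.06e-06), had 0.05 with siL2 (adjusted p = 0.466), and differed between the siRNAs by -0.51 (siL2 minus siL1, adjusted p = 1.05e-05). CTSA, the protective protein that stabilises neuraminidase and beta-galactosidase, went the other way with siL1, from 151 and 149.8 CPM to 116 and 120.3 CPM. It fell by 0.34 (adjusted p = 2.25e-05) and stood at 152 CPM in both siL2 libraries. CTSA exons overlap NEURL2 and PLTP on the other strand. CTSS, best known from antigen-presenting cells, was low at 0.680 to 1.14 CPM (15 to 28 counts) and did not pass (log2 fold changes 0.46 and 0.21, SEs 0.316 and 0.323).

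Of the 4 glycosidases, 2 rose with siL1 and 1 with siL2, and 0 fell. The shares over all tested genes were 24.7% higher and 25.7% lower with siL1, and 22.6% and 23.3% with siL2. NEU1, the lysosomal neuraminidase, rose by 0.27 with siL1 and 0.32 with siL2, from 33.3 and 30.9 CPM to 38.0 to 40.6 CPM in the 4 other libraries (edgeR adjusted p = 0.00335 and 0.00116). GAA, the acid alpha-glucosidase that digests glycogen, stood at 46.3 and 47.7 CPM in siControl, 58.9 and 61.8 CPM in siL1, and 51.3 and 53.2 CPM in siL2. It rose by 0.37 with siL1 (adjusted p = 0.000168). With siL2 it had 0.15 and missed the threshold (adjusted p = 0.0503), which it passed with RLE scaling (0.0426), upper quartile scaling (0.0289), the filter of 1 CPM in 2 libraries (0.0435) and the replicate block (0.00619). HEXA and GLA, the enzymes deficient in Tay-Sachs and Fabry disease, did not pass, with log2 fold changes from 0.10 to 0.14. With the replicate block HEXA passed with siL1 (0.10, adjusted p = 0.0337) and siL2 (0.14, adjusted p = 0.00271), and GLA with siL1 (0.14, adjusted p = 0.0274). HEXA with siL2 also passed with upper quartile scaling (0.0374) and without siControl replicate 2 (0.22, adjusted p = 0.0209).

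The membrane glycoproteins LAMP1 and LAMP2, which line the lysosome, were both lower with siL2 than with siL1. LAMP1 stood at 319.7 and 309 CPM in siControl, 324 and 338 CPM in siL1, and 226 and 222 CPM in siL2. The siL2 libraries lay below all others. LAMP1 fell by 0.49 with siL2 (SE 0.0393, edgeR adjusted p = 6.39e-07) and had 0.08 with siL1 (adjusted p = 0.105), which passed with upper quartile scaling (0.10, adjusted p = 0.0418) and with the replicate block (0.08, adjusted p = 0.0139). LAMP2 stood at 221 and 219 CPM in siControl, 318 and 328 CPM in siL1, and 216 and 218 CPM in siL2. The siL1 libraries lay above all others. LAMP2 rose by 0.56 with siL1 (SE 0.0375, adjusted p = 1.24e-07) and had -0.03 with siL2 (adjusted p = 0.593). Between the siRNAs LAMP1 differed by -0.57 and LAMP2 by -0.59 (siL2 minus siL1, adjusted p = 1.84e-07 and 9.85e-08).

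MCOLN1, the calcium channel TRPML1 of the lysosome membrane, also fell with siL2. Its values were 17.9 and 18.8 CPM in siControl, 19.6 and 18.9 CPM in siL1, and 12.8 CPM in both siL2 libraries, a fall of 0.52 with siL2 (SE 0.0851, edgeR adjusted p = 0.000257). The proteins NPC1 and NPC2 pass cholesterol out of the lysosome in turn. NPC1 rose by 0.40 with siL2, from 113 and 106 CPM to 148 and 140.2 CPM (adjusted p = 2.19e-05), and had 0.07 with siL1. NPC2 rose by 0.34 with siL1 and 0.31 with siL2 (adjusted p = 5.29e-05 and 0.000131). Of the V-ATPase subunits, ATP6V0D1 had 0.00 and -0.08 and did not pass. ATP6V1H rose by 0.13 with siL1 (adjusted p = 0.0312), a call that ended without siControl replicate 1 (0.154), siControl replicate 2 (0.0582) or siL1 replicate 2 (0.179) and with DESeq2 (0.0683), and had -0.08 with siL2.

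**Figure D4:**
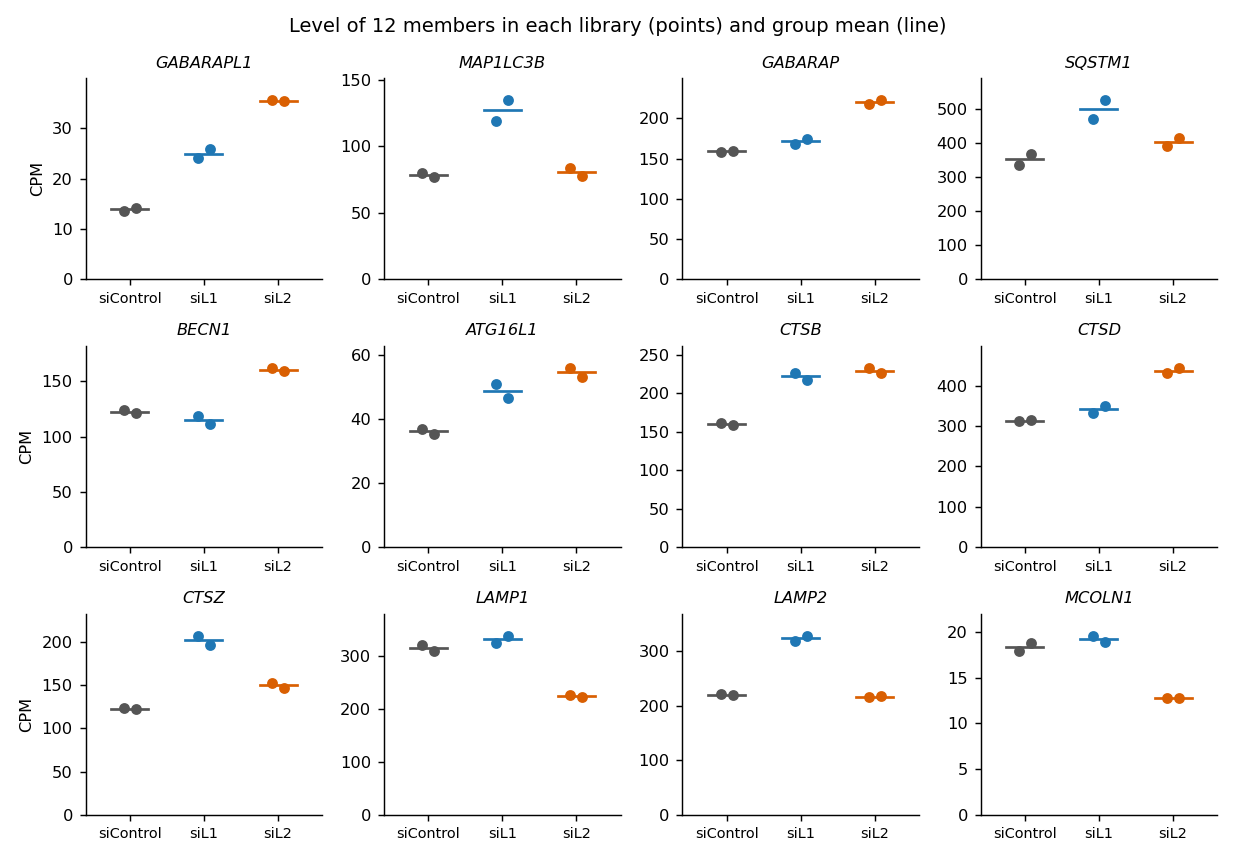
CPM (y axis, from 0) of 12 members in each library (points) by group, with lines at the group means of 2 libraries. GABARAPL1 rises in steps from siControl to siL1 to siL2; LAMP2 and MAP1LC3B are high with siL1 and near the control with siL2; LAMP1 and MCOLN1 are low with siL2.

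The direct comparison of siL2 with siL1 asked where the siRNAs differed. Of the 22 autophagy genes, 7 were higher and 3 lower with siL2 than with siL1, and of the 19 lysosome genes 3 were higher and 7 lower, where 23.2% of all tested genes were called higher and 23.7% lower (edgeR). The higher autophagy genes were BECN1, WIPI2, ATG7, ATG16L1, GABARAP, GABARAPL1 and NBR1, and the lower ones UVRAG, MAP1LC3B and SQSTM1. The higher lysosome genes were CTSA, CTSD and NPC1, and the lower ones CTSL1, CTSZ, GAA, LAMP1, LAMP2, MCOLN1 and ATP6V1H. The GAA difference (-0.22, adjusted p = 0.00656) lost its call without siL1 replicate 2 (0.0680) or siL2 replicate 1 (0.0588). ATG13 did not pass (0.14, adjusted p = 0.0576), but did with the replicate block (0.15, adjusted p = 0.000430), without a filter (0.15, adjusted p = 0.0187), without siL1 replicate 2 (0.23, adjusted p = 0.0156) and without siL2 replicate 1 (0.20, adjusted p = 0.0242). With the block ULK1 (0.13, adjusted p = 0.0289) and WIPI1 (-0.13, adjusted p = 0.0168) passed as well.

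Other genes of these pathways, listed by function, were read beside the same background. Of all tested genes, 24.7% were called higher and 25.7% lower with siL1, and 22.6% and 23.3% with siL2. Lysosomal hydrolases and cofactors outside the members leaned higher: of 44 tested, 25 rose and 4 fell with siL1 (56.8% and 9.09%). With siL2, 20 rose and 6 fell (45.5% and 13.6%). ARSB, the arylsulfatase that digests dermatan sulfate, rose by 0.93 and 0.62 (edgeR adjusted p = 1.13e-07 and 5.01e-06). The acid lipase LIPA rose by 0.40 and 0.20, and with siL1 the sulfatase GALNS rose by 0.76. With siL2 the dipeptidyl peptidase CTSC fell by 1.41, from 240.2 ± 9.77 to 90.5 ± 1.53 CPM (SD, n = 2 each, adjusted p = 1.55e-10), and the ganglioside activator GM2A fell by 0.64. CTSC also fell by 0.21 with siL1. Of 27 other lysosomal membrane proteins, 12 rose and 3 fell with siL1 (44.4% and 11.1%). With siL2, 14 rose and 4 fell (51.9% and 14.8%). The amino acid transporter SLC36A1 rose by 1.29 and LAPTM5 by 0.92 with siL1. The phosphoinositide phosphatase TMEM55A rose by 0.95 and 1.00. With siL2 LAPTM4A rose by 0.50 while its relative LAPTM4B fell by 1.49 (adjusted p = 1.32e-10). Of 20 other subunits of the V-ATPase and its accessory proteins, 9 rose and 4 fell with siL1 (45% and 20%). With siL2, 4 rose and 5 fell (20% and 25%). ATP6V0E1 rose with both (0.40 and 0.37), with siL1 ATP6V1C1 rose by 0.41 and ATP6AP2 by 0.36, and with siL2 ATP6V1G1 fell by 1.33 and ATP6V1B2 by 0.38.

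Autophagy genes outside the members were read in the same way. Of 23 other genes of autophagosome formation, 5 rose and 6 fell with siL1 (21.7% and 26.1%, beside 24.7% and 25.7% of all genes). With siL2, 7 rose and 4 fell (30.4% and 17.4%, beside 22.6% and 23.3%). With siL1 the lipid transfer protein gene ATG2A fell by 1.07 and the ATG8 protease ATG4B by 1.02 (edgeR adjusted p = 7.02e-09 and 8.84e-08), and WDR45L rose by 0.54. With siL2 ATG2A had 0.02 (edgeR adjusted p = 0.735), and its difference between the siRNAs was 1.09 (siL2 minus siL1). With siL2 ATG4B fell by 0.25 and WDR45L rose by 0.35. TMEM41B rose by 0.27 with siL1 and 0.53 with siL2. ZFYVE1 rose by 0.69 and ATG2B fell by 0.51 with siL2. Of 12 other receptors, 4 rose and 2 fell with siL1 (33.3% and 16.7%). With siL2, 5 rose and 1 fell (41.7% and 8.33%, beside 22.6% and 23.3% of all genes). The mitophagy receptor BNIP3L rose by 0.83 and 0.53, and its relative BNIP3 by 0.53 with siL1. NCOA4 rose by 0.17 and 0.26, and OPTN by 0.32 with siL2. TAX1BP1 fell by 1.16 with siL1 but rose by 0.16 with siL2 (edgeR adjusted p = 2.33e-09 and 0.00778). Its difference between the siRNAs was 1.32 (siL2 minus siL1, adjusted p = 8.43e-10). Of 14 fusion genes, 3 rose and 2 fell with siL1 (21.4% and 14.3%), and 4 rose and 3 fell with siL2 (28.6% and 21.4%). The SNARE gene VAMP8 rose by 0.26 and 0.47 and TECPR1 by 0.37 and 0.52. YKT6 rose by 0.32 with siL2, and VPS33A fell by 0.26 with siL1.

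Genes of mTORC1 and AMPK, the kinases that restrain and promote autophagy, had members on both sides. Of 31 tested, 5 rose and 10 fell with siL1, and 6 rose and 10 fell with siL2. The share that fell was 32.3% with each siRNA, beside 25.7% and 23.3% of all genes, and the median log2 fold changes were 0.00 and -0.01. The AMPK catalytic subunit PRKAA1 fell by 0.34 and 0.67 (edgeR adjusted p = 3.91e-05 and 1.11e-07), and PRKAB2 by 0.25 and 0.68. FNIP2, a partner of folliculin, fell by 0.84 and 0.69, while folliculin itself (FLCN) rose by 0.69 and 0.38. Of 10 regulators tied to autophagy, 2 rose and 2 fell with siL1 (20% and 20%), and 2 rose and 3 fell with siL2 (20% and 30%). TP53INP1 rose by 1.86 and 1.63, from 3.47 CPM to 12.5 and 10.8 CPM, and TP53INP2 by 0.27 and 0.72; FOXK2 fell by 0.21 with siL1 and FOXK1 by 0.47 with siL2. Of 18 genes that sort enzymes to lysosomes, 3 rose and 5 fell with siL1 (16.7% and 27.8%). With siL2, 6 rose and 4 fell (33.3% and 22.2%). Over all tested genes, 24.7% rose and 25.7% fell with siL1, and 22.6% and 23.3% with siL2. The mannose 6-phosphate receptor M6PR fell by 1.45 with siL2, from 198 to 72.7 CPM (adjusted p = 1.34e-10), GNPTAB, which makes the mannose 6-phosphate tag, fell by 0.60, and sortilin (SORT1) rose by 0.40. With siL1 the adaptor genes AP1G1, GGA2 and GGA3 fell by 0.54, 0.40 and 0.47.

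**Figure D5:**
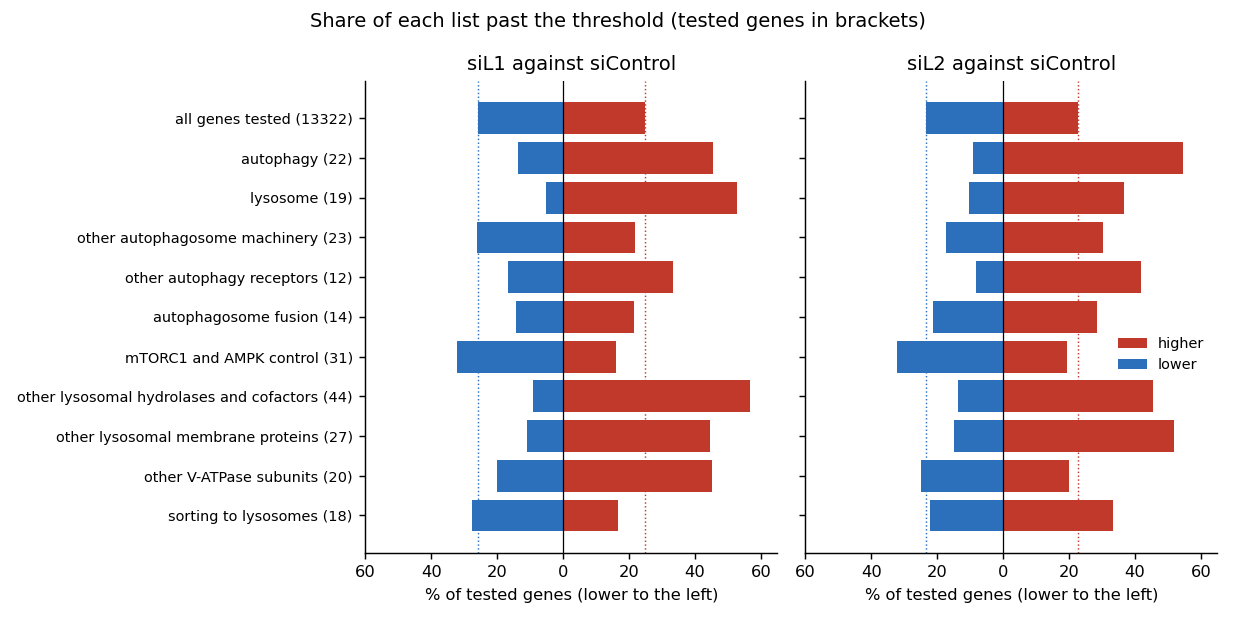
Share of tested genes called higher (red, to the right) and lower (blue, to the left) in each class of members and in the further lists other than the 10 regulators, for siL1 and siL2 against siControl; brackets give the number tested and dotted lines the share over all 13322 genes. Both member classes and the lists of lysosomal hydrolases, lysosomal membrane proteins and other receptors lie beyond the dotted line for higher genes with both siRNAs. The mTORC1 and AMPK list lies beyond the line for lower genes with both siRNAs. Also beyond that line are the sorting and other autophagosome machinery lists with siL1, and the other V-ATPase subunits with siL2.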

How the data were processed

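RNA-seq counts of 6 libraries were used: siControl, siL1 and siL2, 2 libraries each, grouped by sample title. Per the submitters' processing notes the authors used TopHat 1.3.3, HTSeq, DESeq and the build hg19; settings, annotation and strand setting are not given in the sources used here. The deposited table held raw counts per gene symbol. Further columns gave, per siRNA, a fold change as a linear ratio and an adjusted p-value, both computed by the authors.

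Counts were fitted with R 4.3.3 and edgeR 4.0.16: filterByExpr by group, TMM scaling, and glmQLFit with group as the term over all 6 libraries (3 residual degrees of freedom), glmQLFTest two-sided, and Benjamini-Hochberg adjustment over 13322 genes at 0.05. CPM used library totals. The script was checked on simulated data. Alternatives were RLE and upper quartile scaling, other filters, DESeq2 1.42.0, limma-voom (limma 3.58.1), the replicate number as a block, fits of only the groups compared, and each library left out; a lone library in a group is then assumed to vary like the others.

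Same-numbered libraries deviated together weakly: over genes, the difference between replicates 1 and 2 correlated at 0.141, 0.198 and 0.133 between the 3 pairs of groups. A pairing by these numbers is thus possible from the data, but no label states one. The main values come from the fit without the block, and blocked values stand beside results whose call they change.

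The members and lists were chosen with earlier results of these data known. Named genes are all members, KDM1A, the marker genes and, of each pathway list, up to 3 genes with the smallest p past the threshold per siRNA. Promoter windows came from RefSeq on GRCh38.p14 by symbol (CTSL for CTSL1), and transcript lengths, exon overlaps and 3' UTRs from GENCODE 29 on GRCh38, a build other than that of the counts (hg19). UVRAG, MAP1LC3A, CTSB, CTSS, HEXA, LAMP2 and ATP6V1H were not searched for promoter motifs. Python 3.11.15 with pandas 2.3.3, numpy 2.4.6 and matplotlib 3.10.9 was used.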

Additional observations from a re-analysis of the deposited data

How the results depend on the processing

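No member called in the comparisons changed sign past the threshold in any alternative. Over the 41 members and 3 comparisons, 841 of 855 values kept their side of the threshold under other scalings, filters, tools and fits of only the groups compared, with 8 calls lost and 6 gained. The fit with the replicate number as a block lost 0 and gained 11 of 123, all named in the report; it moved the count of autophagy genes lower with siL2 from 2 to 4 and changed no other count by more than 1.5 times. With a library left out, 703 of 738 kept their side, with 30 lost and 5 gained; in 27 of these 738 values a gene without a call changed sign. Of 67 called values, 54 were called in all alternatives that gave a value.

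Without 1 library, the count of autophagy genes higher ranged from 7 to 9 with siL1, 10 to 12 with siL2 and 6 to 7 for siL2 against siL1. Autophagy genes lower ranged from 3 to 3, 2 to 3 and 3 to 3 in that order, lysosome genes higher from 8 to 10, 7 to 8 and 3 to 3, and lysosome genes lower from 1 to 1, 2 to 2 and 6 to 7. Calls over all genes ranged from 5452 to 6731, 4947 to 6060 and 4944 to 6231. Upper quartile scaling moved the median of all genes by less than 0.1 (log2), from -0.01 to 0.01 with siL1. In ULK2, CTSS, MAP1LC3A and TFEB, with SEs from 0.213 to 0.517, changes of the size of most other members were not detectable at this depth.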

Other observations

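Short sequences in the 3' UTR, chosen because earlier results of these data had linked them to changes with these siRNAs, were read over the members (longest 3' UTR per gene in GENCODE 29; 22 autophagy and 18 lysosome genes with one). TACATTT or ACATTTA was present in 9 autophagy genes (ATG3, ATG5, ATG12, ATG14, ATG16L1, NBR1, SQSTM1, ULK2 and UVRAG) and 2 lysosome genes (CTSS and LAMP2), and in 35.3% of 11382 tested genes with a 3' UTR. Over all these genes the median log2 fold change was 0.04 in carriers and -0.03 in others with siL1, and 0.05 and -0.03 with siL2. Over the autophagy genes it was 0.05 in carriers and 0.11 in others with siL1, and 0.19 and 0.17 with siL2. GTTACAA was present in ATG12 and LAMP2 and in 9.56% of all. Over all genes its carriers had a median of 0.03 with siL1 and -0.12 with siL2, beside -0.01 and 0.01 in others. Since the sequences were chosen from these data, medians over all genes are no separate support. With siL2 the log2 fold change was 0.45 for ATG12 and -0.03 for LAMP2, 1 carrier in each class, too few to describe carriers among the members. GABARAPL1 and MAP1LC3B carried neither TACATTT nor ACATTTA. The further sequence ACAGAGC was present in GABARAPL1, ULK2, CTSA, CTSB and CTSS and in 18% of all; over all genes its carriers had a median of -0.02 with siL1 and 0.00 with siL2, beside 0.00 and -0.00 in others. The siRNA sequences are not given in the sources used here, and their part was not tested. A selection of the LAMP2 sites and the ATG16L1 site are shown with the heptamer in capitals. LAMP2 carries both kinds, as does ATG12, whose sites are not shown. ATG16L1 was the carrier of TACATTT or ACATTTA with the largest rise among the members with siL2. With siL1 the carriers LAMP2 (0.56) and SQSTM1 (0.51) rose more than ATG16L1 (0.44).
LAMP2, base 597 of the 3' UTR: gccttttgaaTACATTTgtatttatgt
LAMP2, base 23 of the 3' UTR: cgtgatctctGTTACAAaagaaaaaag
ATG16L1, base 953 of the 3' UTR: ccaaggaaaaACATTTAtctttactat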
